A study of Drosophila melanogaster with 4 samples.

Results

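The genes described here encode the protein subunits of the mitochondrial ribosome of Drosophila melanogaster. Protein-coding genes whose symbol starts with mRpL or mRpS followed by a digit were taken from the Ensembl annotation, which gave 73 of 13968 protein-coding genes on the chromosome arms: 47 of the large subunit (mRpL) and 26 of the small subunit (mRpS). Chromatin immunoprecipitation followed by sequencing (ChIP-seq) was made from whole embryos aged 0 to 24 h of a transgenic strain that expresses Distal-less (Dll) fused to enhanced GFP. Chromatin was sheared to 200 to 800 bp, and the sample descriptions name an antibody against GFP, whereas the antibody field names Dll. All 4 samples are biological replicates of this single group, and no second genotype, age or treatment was profiled. The labels name no promoter or cell type for the transgene, and the peak lists hold no expression values, so the material could not be checked against markers. Whole embryos mix every cell type, so binding in few cells and weak binding in many cells cannot be told apart.

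Mitochondrial ribosomes translate the few proteins that the mitochondrial genome encodes, all of them parts of the respiratory chain and the ATP synthase. Every protein of this ribosome is encoded in the nucleus, made in the cytosol and imported, while its ribosomal RNAs come from the mitochondrial genome. Some of the proteins descend from bacterial ribosomal proteins and others are additions of the mitochondrial lineage. Dll is a homeodomain transcription factor known for specifying legs, antennae and other ventral appendages, and these genes are active in all tissues. DREF, a zinc finger protein, and BEAF-32, an insulator protein, are known to bind promoters of genes used by most cells, at DNA words that share the letters CGATA.

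Promoter sequences of 6 of the 8 members with a peak in the upper 10% of the conservative list are shown first, because the results below turn on which promoters were bound and on the DREF word in them. The promoters of mRpL19 and mRpS25 were added after their values were seen, since their DREF word lay close to the summit. Each sequence runs 5′ to 3′ on the gene's strand, from 70 bases before the transcription start site (TSS) to the first 30 bases transcribed, read from the release 6 (dm6) genome. Capitals mark the DREF word TATCGATA and the BEAF-32 word CGATAT on either strand, which share letters where they overlap.
mRpL39: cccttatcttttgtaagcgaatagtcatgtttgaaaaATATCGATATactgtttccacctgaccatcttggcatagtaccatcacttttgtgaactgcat
mRpL4: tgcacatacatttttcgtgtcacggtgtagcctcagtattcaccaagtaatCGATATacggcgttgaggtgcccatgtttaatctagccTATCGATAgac
mRpL37: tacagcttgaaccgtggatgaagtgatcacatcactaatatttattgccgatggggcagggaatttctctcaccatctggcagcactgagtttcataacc
mRpL17: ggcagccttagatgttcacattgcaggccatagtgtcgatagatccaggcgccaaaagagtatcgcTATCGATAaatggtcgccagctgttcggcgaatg
mRpS23: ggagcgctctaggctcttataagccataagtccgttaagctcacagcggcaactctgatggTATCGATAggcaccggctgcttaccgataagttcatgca
mRpL32: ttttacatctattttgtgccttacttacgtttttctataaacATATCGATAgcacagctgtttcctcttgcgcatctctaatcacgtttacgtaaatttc
mRpL19: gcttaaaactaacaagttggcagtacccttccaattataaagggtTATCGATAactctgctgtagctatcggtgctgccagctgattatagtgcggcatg
mRpS25: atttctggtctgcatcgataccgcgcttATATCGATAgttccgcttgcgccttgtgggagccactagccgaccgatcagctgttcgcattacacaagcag
The printed stretches are chr3L:14999637-14999736 on the minus strand (mRpL39), chr2L:16329103-16329202 on the minus strand (mRpL4) and chr3R:10784063-10784162 on the minus strand (mRpL37). Those of mRpL17 and mRpS23 are chr3L:264709-264808 on the plus strand and chr2L:13835043-13835142 on the minus strand. Those of mRpL32, mRpL19 and mRpS25 are chr3R:31252802-31252901 on the plus strand, chr3R:8674039-8674138 on the plus strand and chrX:14582953-14583052 on the minus strand. Of the sequences shown, only that of mRpL37 holds neither word. The other 2 of the 8 strongest members, mRpL42 and mRpL34, are not printed, and their promoters hold neither word. Of the 2 words of mRpS23, the second lies further upstream.

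A member was counted as having a peak when a summit, the base of highest signal in a peak, lay within 500 bp of one of its TSSs. In the conservative list, which derives from the alignments of all 4 replicates, 50 of 73 members had a peak, which is 68.5% (95% Wilson interval 57.1 to 78.0%), against 32.7% of all protein-coding genes. Intervals of this kind cover counting error over genes only. The mitochondrial ribosomal genes thus had a conservative peak 2.10 times as often as protein-coding genes at large, of which they are part. The 50 members had 50 distinct peaks, so no peak was counted for more than 1 of them.

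Each replicate has its own thresholded list, in which every peak has an irreproducible discovery rate (IDR) score of at least 830 of a possible 1000. In replicate 1, 35 members had a peak (47.9%, against 26.2% of all genes), and in replicate 2 also 35 (47.9%, against 27.1%). In replicate 3, 27 members had a peak (37.0%, against 20.5%), and in replicate 4 it was 34 (46.6%, against 22.6%). Replicate 3 was lowest both for the members and for all genes, and the members lay above all genes in each of the 4 replicates. Over replicates, 44.9 ± 5.29% of members and 24.1 ± 3.05% of all genes had a peak (SD, n = 4 each). The difference within a replicate was 20.8 ± 3.17 percentage points (SD, n = 4), and even the smallest, 16.4 points in replicate 3, was larger than the SD between replicates.

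**Figure D1:**
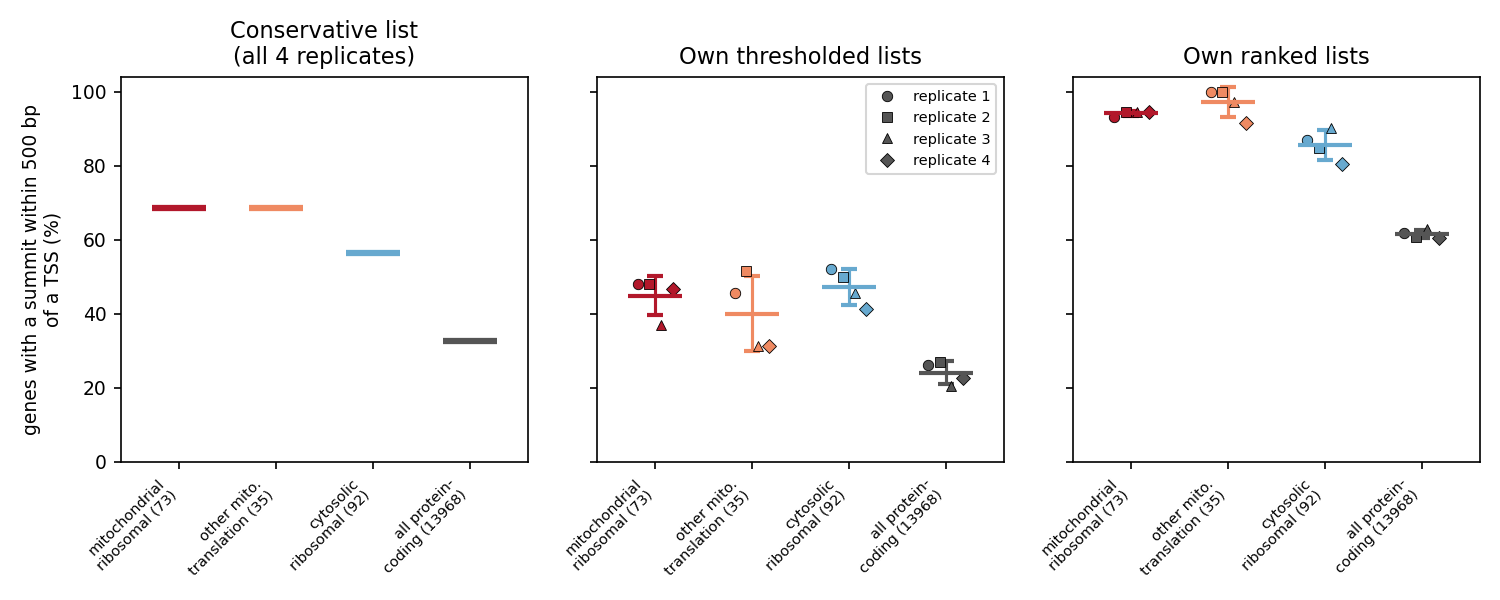
Percent of genes with a summit within 500 bp of a TSS, for the 73 mitochondrial ribosomal genes, 35 other genes of mitochondrial translation (some of them of mitochondrial transcription), 92 cytosolic ribosomal genes and all 13968 protein-coding genes, in the conservative list, the own thresholded lists and the own ranked lists. Points are replicates, horizontal bars are means (single values in the conservative list) and whiskers are SD (n = 4). The mitochondrial ribosomal genes lie at 37.0 to 47.9% in the own thresholded lists and all protein-coding genes at 20.5 to 27.1%.

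The own ranked lists keep weaker candidate peaks as well. They placed a candidate within 500 bp of a TSS for 68 members in replicate 1, against 61.8% of all genes. It was 69 members in each of replicates 2, 3 and 4, against 60.7%, 62.9% and 60.6% of all genes. Over replicates this was 94.2 ± 0.685% of members and 61.5 ± 1.10% of all genes (SD, n = 4 each). A candidate was found in all 4 ranked lists for 64 members, in 3 for 5 members, in 2 for mRpS35 and in 1 for mRpL13 and mRpL41. mRpL50 had none. Nearly every member therefore had some candidate within 500 bp, while the thresholded peaks were found at fewer than 50% of them in every replicate. Some of these candidates lay nearer to another gene. When a candidate counted only for the gene with the nearest TSS, the mean share was 75.3% of members, against 54.3% of all genes.

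Support by the replicates was uneven. A thresholded peak was found in all 4 own lists for 25 members (34.2%, against 17.6% of all genes), in 3 lists for 2, in 2 lists for 7, in 1 list for 11 and in no list for 28. The shares in 3, 2, 1 and no lists were 2.74%, 9.59%, 15.1% and 38.4% of members. Of all protein-coding genes they were 3.89%, 4.08%, 6.01% and 68.4%. Of the 25 members seen in all 4 lists, 24 also had a conservative peak (96%, against 99.8% of all genes seen in all 4), and the exception was mRpL35. Of the 28 seen in no own list, 10 had a conservative peak (35.7%, against 5.56% of all genes seen in none). When a summit counted only for the gene with the nearest TSS, 15 members were seen in all 4 own lists (20.5%, against 10.9% of all genes).

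The strength of a peak was read only as its rank within a list, in percent from the top by the authors' signal, since signal was not compared between lists. How members compared in strength with other bound genes depended on the list. In the own thresholded lists the median rank of a member's strongest own peak was 37.2 ± 1.62% from the top and that of all genes with a peak 37.8 ± 1.56% (SD over replicates, n = 4 each), a difference smaller than the spread between replicates. In the own ranked lists members with a candidate stood at a median of 7.54 ± 0.579% and all genes with a candidate at 10.2 ± 0.441% (SD, n = 4 each), with the members higher in 4 of 4 replicates. In the conservative list the order was the other way round, with a median of 40.9% for the 50 members and 31.9% for all genes with a peak. Of the 50 peaks, 8 were in the upper 10% of the list and 22 in the lower 50%. The number of own lists and the conservative rank went together. The conservative ranks ran from 0.788 to 51.5% (median 16.8%) for the 24 members seen in all 4 own lists, from 29.9 to 84.2% (median 55.8%) for the 16 seen in 1 to 3 lists, and from 54.9 to 86.3% (median 71.7%) for the 10 seen in none. Both measures come from the same reads.

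Among the large subunit genes, 34 of 47 had a conservative peak (72.3%, interval 58.2 to 83.1%), and 17 were seen in all 4 own lists. The strongest was that of mRpL39 (FBgn0036462, chr3L:14997981-14999666, minus strand), whose human counterpart is a large subunit protein without a bacterial equivalent. It ranked 41 among the conservative peaks, 0.788% from the top, and stood 1.25%, 1.11%, 2.97% and 1.07% from the top of the own lists of replicates 1 to 4. The peak of mRpL4, the counterpart of the bacterial protein that lines the exit tunnel, stood at 1.69%, 1.99%, 3.53% and 3.22%. These 2 were the highest ranked members in all 4 own lists, except that mRpL42 stood above mRpL4 in replicate 3. mRpL42, another protein without a bacterial equivalent, stood at 6.539%, 2.99%, 3.17% and 3.92%. mRpL37, also of this kind, stood at 5.87%, 4.04%, 8.68% and 5.999%. The order of mRpL42 and mRpL37 differed between replicates.

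A next group of large subunit genes lay between 6.51 and 17.2% in every replicate. mRpL17, the counterpart of a bacterial protein beside the tunnel exit, stood at 6.51%, 6.59%, 11.4% and 12.0%. mRpL34 stood at 8.15%, 17.2%, 13.0% and 9.43%. mRpL32 stood at 13.4%, 11.7%, 16.0% and 15.4%. mRpL17 ranked above mRpL32 in all 4 replicates, whereas the order of mRpL34 against each of them differed between replicates.

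Further down, replicate 3 stood apart from the others for several genes. mRpL10, the counterpart of the bacterial protein that anchors the stalk, stood at 20.1%, 17.0%, 36.2% and 15.2%. mRpL16, the counterpart of a protein at the tRNA binding sites, stood at 24.7%, 23.5%, 48.2% and 23.8%. mRpL3, the counterpart of a protein near the peptidyl transferase centre, stood at 28.2%, 22.1%, 51.2% and 31.9%. In each of the 3, replicate 3 gave the weakest rank by more than the spread of the other replicates. Of the 25 members seen in all 4 own lists, 14 had their weakest rank in replicate 3, whose list is the shortest. mRpL53 stood at 27.7%, 22.7%, 43.2% and 29.4%, and mRpL33 at 19.7%, 36.9%, 49.98% and 39.3%. mRpL54 stood at 36.6%, 30.5%, 34.5% and 27.9%, and mRpL20, the counterpart of a bacterial assembly protein, at 27.8%, 29.1%, 38.5% and 41.9%. mRpL19, at the subunit interface in bacteria, stood at 45.2%, 39.2%, 55.6% and 48.0%. mRpL19 ranked below the other 4 in every replicate, and the order of those 4 differed between replicates. mRpL48 stood at 59.3%, 61.6%, 83.4% and 68.9%, and mRpL35 at 60.9%, 71.6%, 85.3% and 65.5%. The last pair lay in the lower 50% of every own list, and mRpL35 had no conservative peak.

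Among the small subunit genes, 16 of 26 had a conservative peak (61.5%, interval 42.5 to 77.6%), and 8 were seen in all 4 own lists. The intervals of both subunits overlap over most of their length. Subunits were assigned by symbol, although the human counterparts of mRpS18A and mRpS30 sit in the large subunit. mRpS23, without a bacterial equivalent, had the strongest peak of the small subunit and stood at 16.2%, 13.4%, 14.3% and 12.9% in replicates 1 to 4. mRpS17, the counterpart of a bacterial protein that binds the ribosomal RNA early in assembly, stood at 13.7%, 19.2%, 19.5% and 18.5%. The order of these 2 genes differed between replicates, and none of the small subunit reached the level of mRpL39, mRpL4, mRpL42 or mRpL37 in any replicate. The fly has a trio of genes related to the bacterial S18 protein. mRpS18A stood at 21.4%, 23.7%, 23.7% and 30.1%, and mRpS18C at 29.8%, 33.9%, 44.1% and 39.0%. mRpS18B had a peak in 2 own lists only, at 90.4% in replicate 1 and 61.8% in replicate 4.

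mRpS29, known in humans as DAP3, a GTP-binding protein also linked to cell death, stood at 39.6%, 42.4%, 36.7% and 38.0%. mRpS24 stood at 40.8%, 43.9%, 43.6% and 33.7%. Over replicates these ranks had an SD of 2.44 and 4.73 points (n = 4), and they overlapped with each other. mRpS6, the counterpart of the bacterial partner of S18, stood at 83.3%, 50.6%, 78.2% and 62.2%, and mRpS25 at 58.1%, 81.7%, 68.4% and 79.3%. Both were weak in every replicate and varied by 15.0 and 10.8 points (SD, n = 4).

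**Figure D2:**
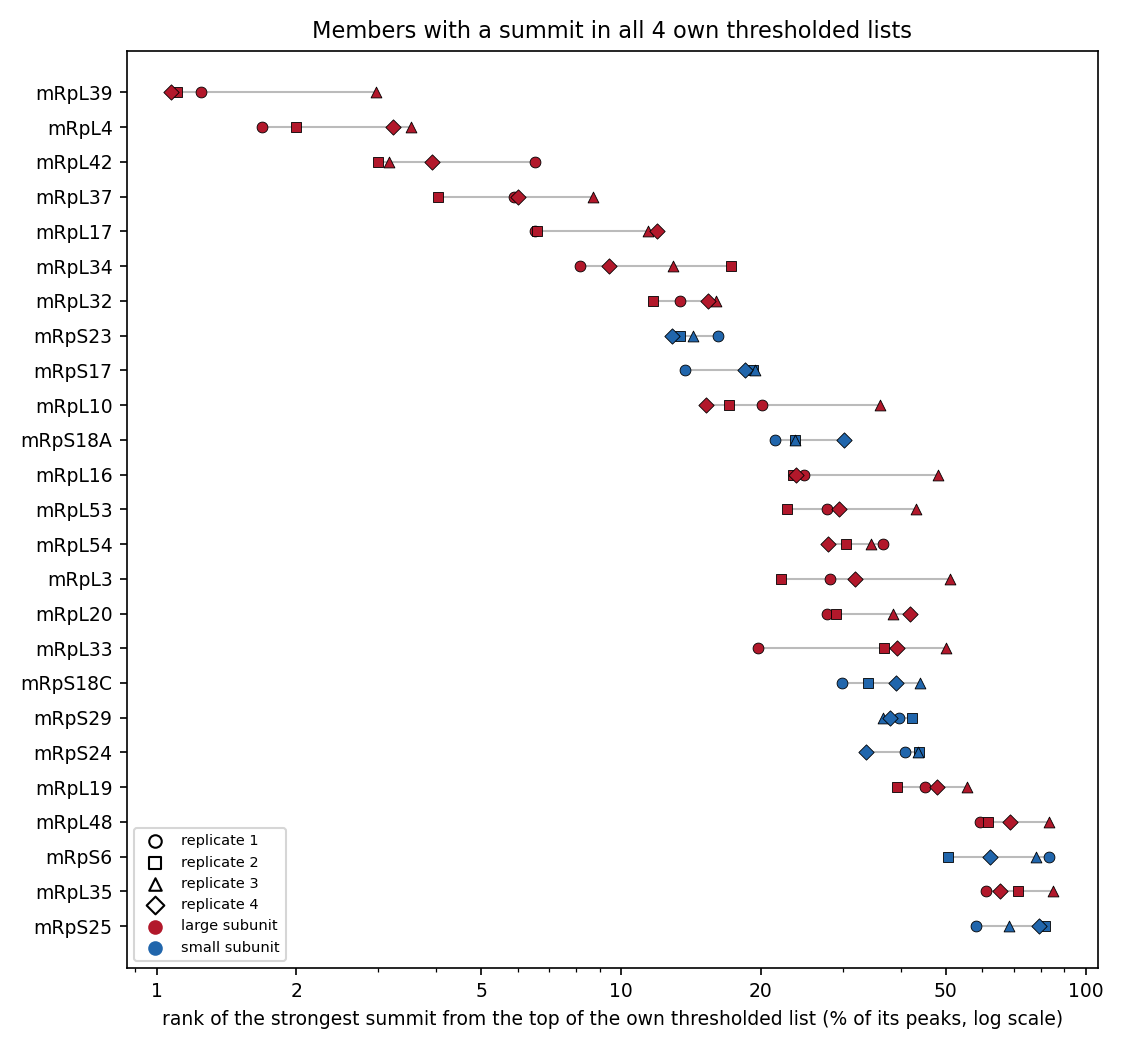
Rank of the strongest own thresholded summit of each of the 25 members seen in all 4 own lists, in percent from the top of each list on a log scale, ordered by the mean over replicates. Symbols are replicates, red is the large and blue the small subunit, and grey lines join the lowest and highest rank. mRpL39 and mRpL4 lie at 1.07 to 3.53% and mRpS25 at 58.1 to 81.7%, and replicate 3 is the weakest for 14 of the 25.

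Members seen in 1 to 3 replicates had conservative ranks between 29.9 and 84.2%. mRpL51 and mRpL40 were seen in 3 own lists, with conservative ranks of 31.5% and 33.9% from the top, and were missing in replicate 1 and in replicate 3. mRpL30, mRpL46, mRpS28, mRpL11, mRpS18B and mRpS22 were seen in 2 lists, with conservative ranks of 29.9%, 43.4%, 46.8%, 50.7%, 55.5% and 66.1%. Those seen in 1 list were mRpS34 at 54.4%, mRpL12, the counterpart of the bacterial stalk protein, at 56.0%, mRpL44 at 61.5%, mRpL28 at 62.1%, mRpS2 at 64.2%, mRpL2 at 67.7%, mRpS16 at 81.0% and mRpL15 at 84.2%. For these 8 genes, the replicate was 1 for mRpS2, mRpL2, mRpS16 and mRpL15, 2 for mRpL12, mRpL44 and mRpL28, and 4 for mRpS34. Another 5 members had an own thresholded peak and no conservative peak. Beside mRpL35, these were mRpL9 in replicates 1 and 2 at 82.1% and 74.2%, mRpL52 in replicate 2 at 82.2%, and mRpL49 and mRpS26 in replicate 4 at 87.7% and 89.7%.

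The 10 members with a conservative peak and no own thresholded peak were mRpL23, mRpL18, mRpL43, mRpL21, mRpS14, mRpL14, mRpL38, mRpL24, mRpS21 and mRpL55, in the order of their conservative ranks. These ranks were 54.9%, 60.5%, 63.1%, 63.8%, 67.4%, 76.0%, 78.4%, 79.5%, 85.8% and 86.3% from the top. All 10 had candidates in the own ranked lists, mRpS21 in 3 of them and the other members in 4.

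As given above, 38.4% of members were seen in no own thresholded list, against 68.4% of all genes. In no thresholded list at all, own or conservative, were 18 of 73 members, a share not computed over all genes. They were 9 of the 47 large and 9 of the 26 small subunit genes. The large subunit genes were mRpL1, mRpL13, mRpL22, mRpL27, mRpL36, mRpL41, mRpL45, mRpL47 and mRpL50, and the small subunit genes were mRpS5, mRpS7, mRpS9, mRpS10, mRpS11, mRpS30, mRpS31, mRpS33 and mRpS35. Leaving aside mRpL47 and mRpL50, the best of their candidates in any own ranked list stood between 8.06% (mRpL41 in replicate 4) and 25.6% (mRpS7 in replicate 3) from the top of that list. These candidates varied between replicates. That of mRpL1 stood at 10.7%, 31.5%, 73.8% and 22.6% in replicates 1 to 4. That of mRpS33 stood at 98.3%, 11.5%, 51.1% and 42.7%.

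mRpL47, the counterpart of bacterial L29 at the tunnel exit (FBgn0014023, chr3R:9514822-9515908, minus strand), stood apart from the other 17. Its candidate stood at 0.502%, 0.631%, 0.953% and 0.745% from the top of the own ranked lists of replicates 1 to 4, with the highest possible score of 1000 in each. The summits lay 36, 34, 54 and 36 bp upstream of the TSS. By rank and score in the ranked lists it was thus among the strongest members in all 4 replicates, next to mRpL37, which stood at 0.499%, 0.390%, 0.516% and 0.448% in the same lists. Yet none of the own thresholded lists and not the conservative list held a peak there. Ranked candidates with a score of 830 or more that are missing from the thresholded list numbered 107, 105, 55 and 88 in replicates 1 to 4, or 2.13 to 2.96% of such candidates. In all 4 replicates 43 protein-coding genes were in this state, and mRpL47 was the only mitochondrial ribosomal gene among them. Per the sample descriptions, a thresholded list derives from 1 file more than the ranked list, and the part of that file in this absence was not tested. Counted by score alone, 26 members would be seen in all 4 replicates, against 18.0% of all genes.

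Many of these genes share their promoter region with another gene. Of the 73 members, 53 (72.6%) had a protein-coding neighbour on the other strand, head to head, with its TSS at most 500 bp upstream, against 26.7% of all protein-coding genes and 39.1% of cytosolic ribosomal genes. The gap between the TSS pair had a median of 264 bp and ran from 20 to 499 bp. None of the neighbours was itself a mitochondrial ribosomal gene. Their known roles are varied. mRpL39 lies 285 bp from Prosbeta2, a proteasome subunit, and mRpL17 lies 399 bp from Tudor-SN, a nuclease. mRpL34 lies 384 bp from Dg, which encodes dystroglycan, mRpL42 lies 136 bp from PIG-N, of membrane anchor synthesis, and mRpS17 lies 436 bp from Nop60B, which modifies ribosomal RNA.

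A conservative peak was found at 40 of the 53 head-to-head members, and in 39 of the 40 cases the neighbour met the same 500 bp rule. The exception was mRpS6, whose neighbour Cip4 had none. Neighbours were chosen within 500 bp of the member, so 1 summit often meets the rule for both genes. The 39 cases thus follow largely from the choice of neighbours. The strongest summit lay between both TSSs in 25 of the 40, a count not made over all head-to-head genes. At mRpL39 it lay 161 bp upstream of the member and nearer to Prosbeta2, and in the own lists it lay 205, 186, 147 and 161 bp upstream. At mRpL17 it lay 277 bp upstream and nearer to Tudor-SN, whereas at mRpL42 it lay 1 bp upstream of the member's TSS. Over the 50 members with a conservative peak, the member's own TSS was the nearest to the strongest summit in 32 and that of another gene in 18. This split was not computed over all genes. When any summit counted, but only for the gene with the nearest TSS, 34 members had a conservative peak (46.6%, against 25.3% of all genes). At a shared promoter the peak cannot be assigned to either gene, and mRpL53 also has the same TSS as CG33155 on its own strand.

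**Figure D3:**
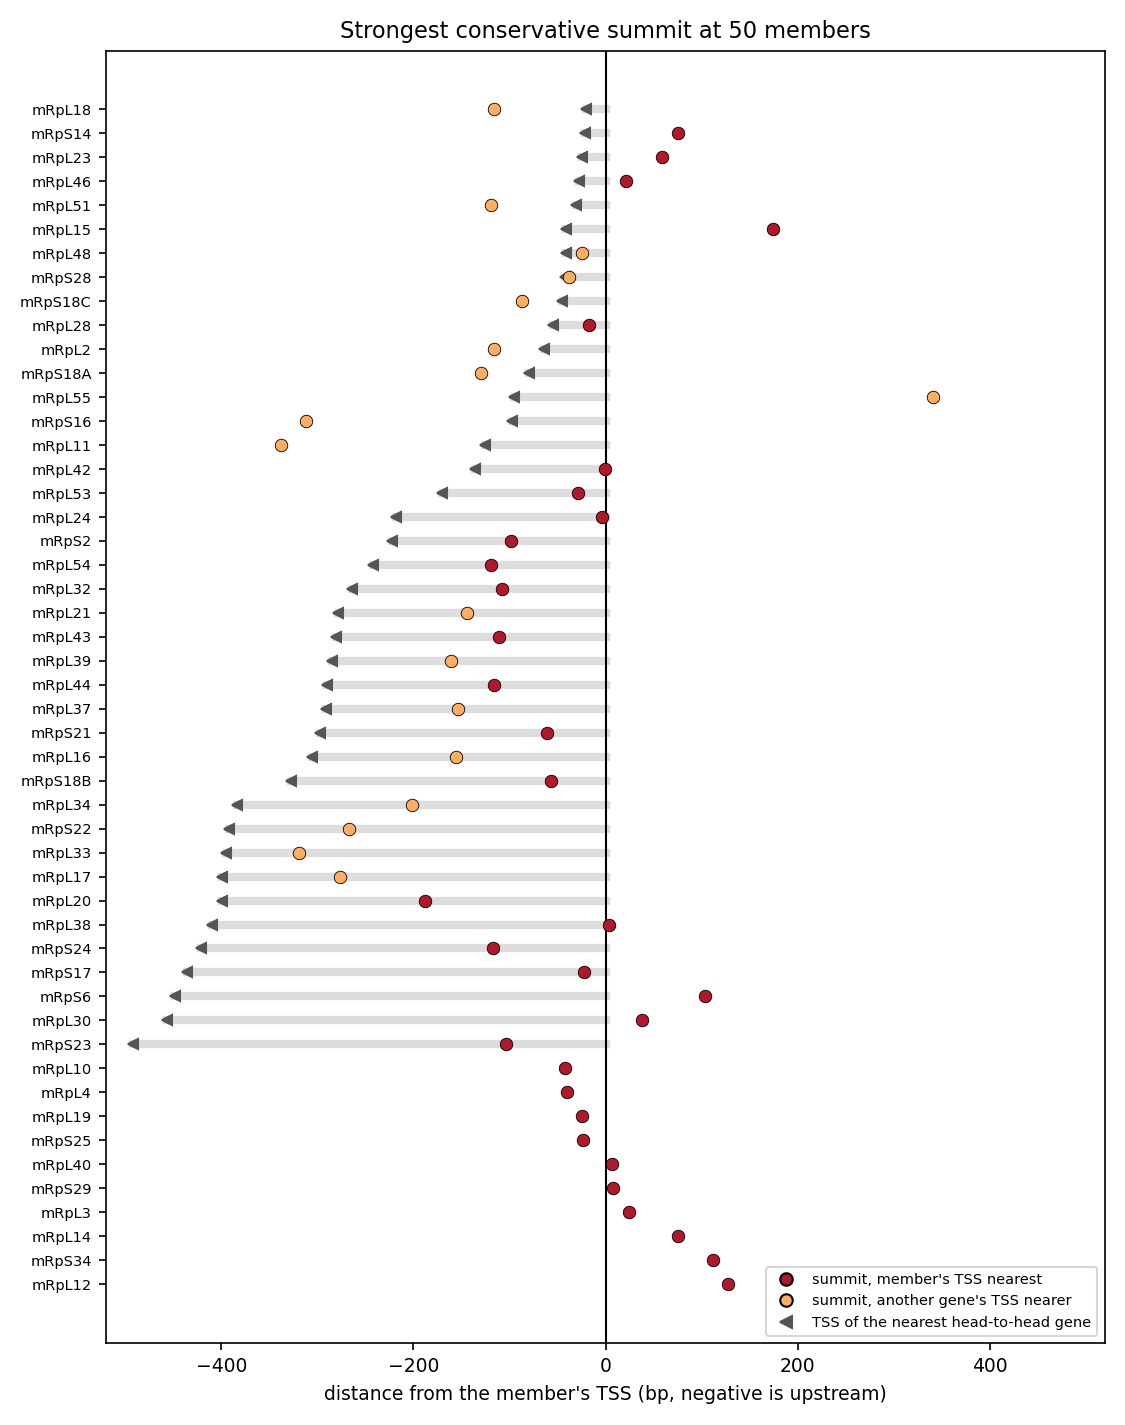
Position of the strongest conservative summit (circles) relative to the TSS of each of the 50 members with a conservative peak, in bp. Grey bars run to the TSS of the nearest head-to-head gene (triangles), rows are ordered by that gap, and the 10 members without such a gene are at the bottom. Red circles are the 32 summits nearest to the member's TSS and orange circles the 18 nearer to another gene, and 43 summits lie within 200 bp of the member's TSS.

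Members with any other protein-coding TSS within 500 bp, on either strand, numbered 54. Of these 40 had a conservative peak (74.1%, interval 61.1 to 83.9%), against 60.7% of all genes with such a neighbour. Of the 19 members without a neighbour, 10 had a conservative peak (52.6%, interval 31.7 to 72.7%), against 20.2% of all genes without one. Neighbours thus went with more peaks among genes at large, and the members' share lay above the background in both classes, with the background of 60.7% just below the interval of the first. By the count of genes seen in all 4 own lists, this excess at shared promoters was not seen. Other counts from the own lists were not split by neighbour. Of members with a neighbour, 35.2% were seen in all 4 own lists (19 of 54), against 35.5% of all genes with one, and their median conservative rank was 42.2% from the top, against 28.3%. Of members without a neighbour, 31.6% were seen in all 4 own lists, against 9.64% of all genes without one. The 10 peaks without a neighbour were those of mRpL4, mRpL3, mRpL10, mRpL19, mRpL12, mRpL14, mRpL40, mRpS25, mRpS29 and mRpS34. Their summits lay between 42 bp upstream (mRpL10) and 128 bp downstream (mRpL12) of the TSS, with a median of 7.5 bp downstream.

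Over all 50 members the summit lay at a median of 49.5 bp upstream of the TSS, against 73 bp upstream for all genes with a conservative peak. It lay upstream in 36 of the 50, against 3591 of the 4565 genes with a conservative peak, so not more often in the members. For the 25 members seen in all 4 own lists, the summit position had a median SD of 20.3 bp over the replicates (from 5.56 bp at mRpL10 to 66.0 bp at mRpL35), and in 14 it stayed within 50 bp, with ranges of up to 150 bp in the others. The candidates of mRpL55, a member with no own thresholded peak, in the own ranked lists lay 311 bp downstream, 211 and 187 bp upstream and 164 bp downstream of its TSS in replicates 1 to 4. At mRpL4 the summits lay 19, 32, 35 and 17 bp upstream in replicates 1 to 4. At mRpS17 they lay 15, 21, 115 and 140 bp upstream, so replicates 1 and 2 differed there from replicates 3 and 4.

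The DREF word TATCGATA was found in 15 of 73 member promoters (20.5%), read from 250 bases before to 50 bases after the 5′ end of the gene, against 9.36% of all promoters. The word reads the same on both strands. Among the 25 members seen in all 4 own lists, 12 promoters held it (48.0%, interval 30.03 to 66.5%), against 36.03% of all genes seen in all 4 lists. Among the other 48 members 3 did (6.25%, interval 2.15 to 16.8%), against 3.65% of other genes. Split by the conservative list it was 14 of 50 (28%) with a peak, against 24.4% of all genes with a peak, and 1 of 23 without. With the window ended at the TSS, the share with a peak was 16% of members, against 20.8% of all genes. The word thus went with replicate support in the members as it does in all genes, and in each class of the whole window the share of all genes lay within the members' interval.

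The BEAF-32 word CGATAT, searched on both strands and overlapping the DREF word in ATATCGATA, was found in 17 of 73 member promoters (23.3%), against 18.6% of all promoters. It was held by 13 of 25 members seen in all 4 own lists (52.0%, interval 33.5 to 69.97%) and by 4 of the other 48 (8.33%). All genes gave 43.2% and 13.4% in these classes. Of the strongest members, mRpL39, mRpL4 and mRpL32 held both words, as their sequences above show, and mRpL37, mRpL42 and mRpL34 held neither DREF nor BEAF-32 words.

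**Figure D4:**
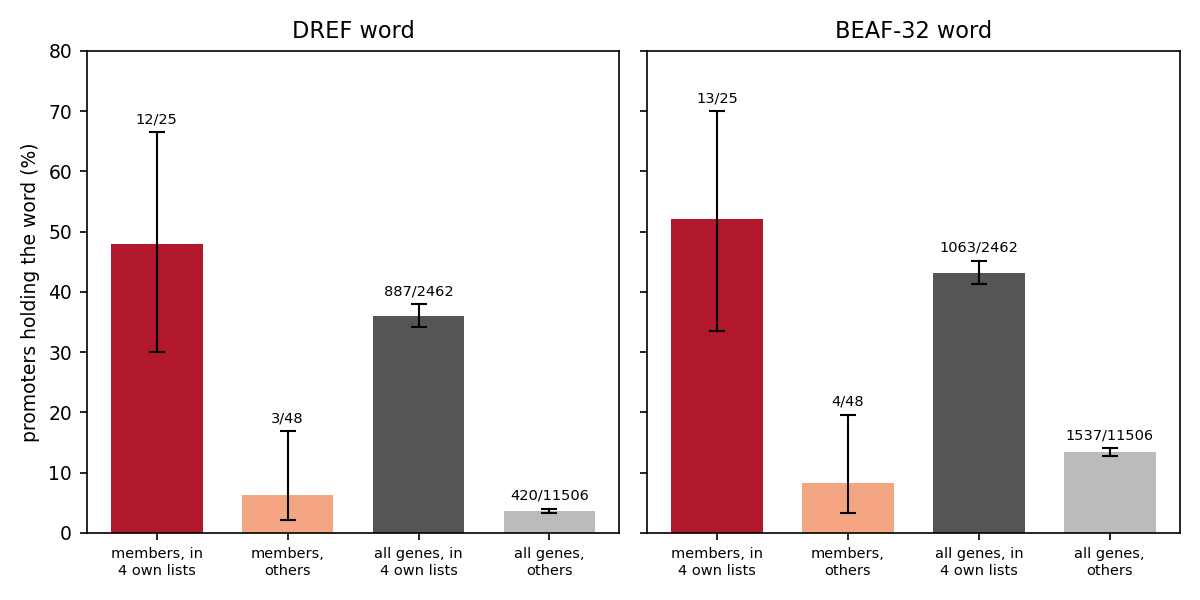
Percent of promoters (250 bases before to 50 after the gene's 5′ end) that hold the DREF word (left) or the BEAF-32 word (right), for members seen in all 4 own thresholded lists, other members, and all genes in the same 2 classes. Whiskers are 95% Wilson intervals and the numbers above the bars are promoters with the word of all promoters in the class. The word is held by 12 of 25 and 13 of 25 members seen in all 4 lists, and by 3 and 4 of the other 48.

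The DREF words of these promoters lay close to the start of transcription. Taking the word nearest to the TSS, 14 of the 15 started within 50 bp of it, and the exception was mRpL22 with the word 73 bp upstream and no thresholded peak. The starts ran from 73 bp upstream to 23 bp downstream with a median of 9 bp upstream. Of the 1307 promoters of all genes that hold the word, 59.4% had it within 50 bp, with a median of 41 bp upstream, and 7 of 9 promoters of other mitochondrial translation genes and 15 of 28 of cytosolic ribosomal genes did. The 50 bp limit was chosen after the positions were seen. Only 9 of the 15 members still held the word when the window ended at the TSS, against 1116 of 1307 genes.

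In the 5 strongest promoters printed above that hold the DREF word, it lay nearer to the TSS than to the summit. From the word's centre to the conservative summit the distance had a median of 73.5 bp in the 14 members with both (from 2.5 to 276.5 bp). It was 2.5 bp at mRpL19, 6.5 bp at mRpS29 and 14.5 bp at mRpS25, but 132.5 bp at mRpL39 and 276.5 bp at mRpL17, where the summit lies on the side of the neighbouring gene. Within 50 bp of the strongest conservative summit, 5 of 50 members had the word (10%, interval 4.35 to 21.4%), against 12.9% of 4406 conservative summits near a TSS.

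For the other 9 words searched, the share in all promoters lay within the members' interval. The M1BP word GGTCACAC was in 8 of 73 member promoters (11.0%) and 7.69% of all. Members without a conservative peak held it in 4 of 23 (17.4%, interval 6.98 to 37.1%), against 4.97% of such genes. Members not in all 4 own lists held it in 14.6% (interval 7.25 to 27.2%), against 7.02%. In both classes the share of all genes lay below the interval. With the window ended at the TSS, these classes gave 0% and 2.08% of members, against 2.36% and 3.65%. In the whole window, members with a conservative peak gave 8%, against 13.3% of such genes. The TATA word TATAAA was in 46.6% and 45.8%, the E-box CACGTG in 5 members (6.85%) and 4.20% of all. The word AGGGCTG of the insulator protein ZIPIC was in 5 (6.85%) and 3.80%, the NRF-1 type word GCGCATGC in 1 (1.37%) and 1.05%, and the GAGA factor word GAGAGAG in 1 (1.37%, interval 0.242 to 7.36%) and 5.86%. The initiator word TCAGTT was in 13 (17.8%, interval 10.7 to 28.1%) and 26.1%, and TCAGTC in 4 (5.48%, interval 2.15 to 13.3%) and 12.4%. The homeodomain core TAATTA, a word that Dll-type homeodomains can bind, was in 15 of 73 member promoters (20.5%) and 20.4% of all. In the narrower class of members seen in all 4 own lists, 1 of 25 held it (4.00%, interval 0.710 to 19.5%), and the share of 21.6% in all genes seen in all 4 lists lay above that interval. Within 50 bp of the conservative summits it was found at 6 of 50 members (12.0%, interval 5.62 to 23.8%), against 7.38% of conservative summits near a TSS. All words were searched on both strands, and their absence says only that these letters are not in the window.

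The split of members by the number in their symbol gave no clear difference. Of those numbered like bacterial ribosomal proteins (mRpL up to 36, mRpS up to 21), 30 of 42 had a conservative peak (71.4%, interval 56.4 to 82.8%). Of those with higher numbers it was 20 of 31 (64.5%, interval 46.9 to 78.9%). The number is an imperfect guide, since mRpL47 and others with high numbers have bacterial counterparts. By arm, 9 of 12 members had a conservative peak on 2L, 10 of 12 on 2R, 11 of 17 on 3L, 12 of 21 on 3R and 8 of 11 on X, and none of the members lies on another arm. The intervals of the highest and lowest arm overlap (2R 55.2 to 95.3%, 3R 36.5 to 75.5%). Shares of all genes per arm were not computed, so no difference between arms is read from these counts.

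Conservative peaks were found at 68.5% of mitochondrial ribosomal genes and at 68.6% of 35 genes listed as other mitochondrial translation genes (24 genes, interval 52.0 to 81.4%), against 32.7% of all genes. That list also holds genes of mitochondrial transcription, such as PolrMT, TFAM and mtTFB2. Of the 35, 10 were seen in all 4 own lists (28.6%, against 17.6% of all genes). tko and bonsai, which encode the mitochondrial ribosomal proteins S12 and S15 under other names, had conservative ranks of 9.01% and 38.0% from the top, with peaks in 4 and 3 own lists. The release factor mRF1 and mTerf5, named as a transcription termination factor, ranked at 6.40% and 6.15%, above all but 5 members. The RNA-binding protein bsf stood at 11.9%, the elongation factors mEFTs and mEFG1 at 15.4% and 19.1%, GatC of the glutamine-tRNA pathway at 22.7%, the transcription factor mtTFB2 at 33.1% and the initiation factor mIF3 at 40.3%, each seen in all 4 own lists. mEFTu1, mEFTu2 and mIF2 stood at 49.3%, 73.4% and 46.7%, and TFAM and mtTFB1 at 82.6% and 88.8%, with peaks in at most 2 own lists.

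Of the 15 mitochondrial aminoacyl-tRNA synthetase genes, 9 had a conservative peak (60%, interval 35.7 to 80.2%, against 32.7% of all genes). Only AspRS-m, with a conservative rank of 13.2%, was seen in all 4 own lists (6.67% of the 15, against 17.6% of all genes). The others with a peak were AlaRS-m at 45.8%, LeuRS-m at 57.6%, ArgRS-m at 58.6%, TyrRS-m at 61.8%, PheRS-m at 77.1%, CysRS-m at 79.7%, GluRS-m at 83.1% and IleRS-m at 87.0%. Over the own thresholded lists the mitochondrial ribosomal genes reached 44.9 ± 5.29% and these 35 genes 40 ± 10.2% (SD, n = 4 each), a difference smaller than the SD. The own ranked lists gave 94.2 ± 0.685% and 97.1 ± 4.04% (SD, n = 4 each), with the 35 genes above in replicates 1 to 3 and below in replicate 4.

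In the conservative list, the mitochondrial ribosomal genes at 68.5% (interval 57.1 to 78.0%) and the 92 cytosolic ribosomal genes at 56.5% (52 genes, interval 46.3 to 66.2%) had overlapping intervals. Over the own thresholded lists the mitochondrial ribosomal genes reached 44.9 ± 5.29% and the cytosolic ribosomal genes 47.3 ± 4.82% (SD, n = 4 each), a difference smaller than the SD. In the own ranked lists it was 94.2 ± 0.685% and 85.6 ± 4.10% (SD, n = 4 each), and the mitochondrial ribosomal genes lay above in 4 of 4 replicates. Seen in all 4 own thresholded lists were 34.2% of the mitochondrial and 39.1% of the cytosolic ribosomal genes. The median conservative rank was 40.9% for the mitochondrial and 23.0% for the cytosolic ribosomal genes with a peak.

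Depth is unknown, since peak lists hold no read counts, so a member without a peak is not shown to be unbound. The conservative list held 5203 peaks on the nuclear arms, the own thresholded lists 2523 to 3610 and the own ranked lists 39011 to 44390. A control library is named in the labels and was not analysed here.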

How the data were processed

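Dll-eGFP ChIP-seq peak lists of 4 replicates, which are 1 group, were analysed. Coordinates in the deposited lists are on dm6, per the labels. The deposited lists give a score, which is the authors' scaled IDR, a signal per peak, which is the authors' value and served here for ranks within a list alone, and the authors' −log10 of the q value, which was not used in the counts. Per the sample descriptions, own ranked lists derive from a sample's alignments and 1 further file, thresholded lists from 1 file more, and the conservative list from all 4 samples' alignments. For the aligner, the caller and the scaling of the signal, no name is given in the sources used here. The 7 ranked series-level lists hold 14 columns in all with a replicate's signal and no sample name, and were not used.

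Genes and TSSs of every transcript came from Ensembl release 115 (BDGP6.54), on 7 arms. All peaks ended within their chromosomes. A gene counted when a summit lay within 500 bp of any of its TSSs, whichever gene was nearest. Shares were set beside those of all 13968 protein-coding genes, members included, with Wilson 95% intervals, and means ± SD run over 4 replicates. No test was made over the gene list, and a difference was read against the SD between replicates. A RefSeq promoter table was planned, and windows of 300 bases around the Ensembl 5′ end, read from the release 6 genome, took its place. Of 32 entries of the list of other mitochondrial translation genes, which includes some genes of mitochondrial transcription, 20 matched a gene and 15 synthetase genes were added. Sequences were printed for the 6 members with the highest conservative signal that are not on arm 2R. Genes were named by this rule: values for up to 25 members seen in all 4 own lists, every member seen in fewer lists, and groups for the rest. The members, lists and words were chosen with earlier results of these data known. Replicates are biological by their labels, and intervals over genes do not measure the spread between embryo collections. Alternatives changed the distance, the TSS set, the summit rule, the nearest gene, the threshold, the list and the replicates. The counting step was tested on simulated summits. Python 3.11.15, NumPy 2.4.6, SciPy 1.17.1 and matplotlib 3.10.9 were used.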

Additional observations from a re-analysis of the deposited data

Results flagged for a closer look

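In 5 of 29 groups of 4 replicate values, 1 replicate lay far from the other 3. Chance flags about 1 in 20 such groups where values are independent and normally distributed. These groups share the same 4 replicates, so their count cannot be read against that rate. Members with an own thresholded peak made up 37.0% in replicate 3, against 46.6 to 47.9% in the other replicates, and the share of all protein-coding genes was lowest in replicate 3 too, at 20.5%. Members with an own ranked candidate made up 93.2% in replicate 1, against 94.5% in each of the others, a difference of 1 gene. With 3 equal values this group was flagged however small the difference. mRpL16 stood 48.2% from the top of the own list in replicate 3, against 23.5 to 24.7% in the others. mRpL39 stood at 2.97% in replicate 3, against 1.07 to 1.25%. mRpS17 stood at 13.7% in replicate 1, against 18.5 to 19.5%. Replicate 3 has the shortest thresholded list, with 2523 peaks against 2884 to 3610, and the part of list length in these values was not tested.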

How the results depend on the processing

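Of 69 recomputed values 55 stayed within the limits set for a change and 14 moved. The limits differed by kind of value: the SD over replicates for shares and median ranks, the Wilson interval for word shares, and a fold change for counts. By the fold limit, the fall of the conservative count from 50 to 34 for the nearest TSS is among the values that stayed. So are the counts of 37 to 53 in the other series-level lists. The members' share lay above that of all genes in all 51 values of the conservative, thresholded and ranked shares and of the count in all own lists, and the other 6 thresholded series-level lists gave 37 to 53 members, 1.88 to 2.16 times the background. The count of members with a conservative peak was 28 (background 22.5%) in the upper 50% of peaks by signal and 10 when only members without a neighbouring TSS were counted, by construction fewer genes. When a summit counted only for the nearest TSS, the conservative count was 34 (background 25.3%), the mean share over own thresholded lists was 33.2% (background 17.8%), that over ranked lists 75.3% (background 54.3%) and the count in all 4 own lists 15 (background 10.9%). The upper 50% by signal gave an own share of 29.8% (background 15.5%). The share over ranked lists was 88.4% at 250 bp (background 53.0%), 96.6% at 1000 bp (background 69.6%) and 96.2% when any base of the peak counted (background 65.7%). The DREF share of members with a peak was 16.0% in the 250 bases before the start (background 20.8%). It was 48.0% in members seen in all 4 own lists (background 36.03%) and 10% within 50 bp of the summit (background 12.9%). The BEAF-32 share was 52.0% (background 43.2%) and 12.0% (background 17.4%) in those last 2 settings. Leaving out each replicate in turn gave own shares of 43.8 to 47.5%, ranked shares of 94.1 to 94.5%, 25 to 26 members seen in all remaining lists and median ranks of 36.8 to 37.9%. These shares and median ranks could not move, since leaving out a replicate always shifts a mean of 4 by less than their SD. The shares were also bound to lie above the background, because the members lay above all genes in every replicate. They are thus no check on stability. The own lists by score alone, the members without a neighbour and the summit windows were added after the data were seen. No paired analysis was possible because there is no second group to pair replicates with, and the difference from all genes was taken within each replicate. Unknown depth limits every statement about members without a peak.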
